A study of Triticum aestivum with 4 samples.

Results

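A set of 208 probes gave a strongly raised signal in young spikes of a bread wheat line with pistillody. They were drawn from the 37826 probes of a one-colour oligonucleotide array, 29 of which were left out for an outlier mark on any array. A probe belongs to the set if both arrays of the pistillody line showed it well above background and its mean log2 signal there was at least 2 units (4-fold) above the mean of the 2 Chinese Spring arrays. These signals chose the members, so their differences between the lines are given as a description, without a test.

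The pistillody line, (cr)-CSdt7BS, is Chinese Spring wheat in which the cytoplasm comes from Aegilops crassa, a wild relative, and chromosome 7B is present only as its short arm. The normal line was Chinese Spring (CS) itself, the standard cultivar of wheat genetics, with its own cytoplasm and complete chromosomes. Each line had 2 arrays, and each array measured RNA of 1 sample of spikes 3 to 10 mm long, taken from field-grown plants as florets were forming. The lines differ in both cytoplasm and chromosome arm, and in the organs of their florets, so these cannot be told apart. In a whole spike, more cells of a type and more RNA per cell cannot be told apart either. The sources describe independent experiments without saying how separate the plants were, so the spread between replicates may be technical.

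In pistillody, organs that would have become stamens take on the form of pistils. In the general model of flower development, stamens form where class B and class C MADS-box genes act together and carpels form where class C genes act without class B. Loss of class B function turns stamens towards carpels in Arabidopsis, rice and maize. In wheat with Aegilops crassa cytoplasm, nuclear restorer genes are known to keep stamens normal, and one of them lies on the long arm of chromosome 7B.

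None of the members could be tied to such a gene. The product of all 208 is given as unknown, 0 have a chromosome position and 0 of their names occur among the identifiers of 155467 genes annotated on the IWGSC CS RefSeq v2.1 assembly. Of the names of all 37826 probes 0 occur there either, so the lack of a match is no trait of the members. Members are therefore called by their probe names, and floral organ genes and marker genes of the spike were not checked. Of the names, 163 are contigs, that is, sequences assembled from several transcript reads.

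Signals are expressed below on a scaled log2 axis, on which 0 is the 75th percentile of each array's probes. That percentile was 2280 and 2180 signal units in the pistillody line and 1998 and 2170 units in CS. Between 29404 and 31589 probes were well above background, here called detected, on each array. The lowest signal of a detected probe was 15.3 and 23.7 units in pistillody replicates 1 and 2, and 24.0 and 15.8 units in CS replicates 1 and 2. Detection limits were thus alike in pistillody replicate 1 and CS replicate 2, and in pistillody replicate 2 and CS replicate 1. The median log2 difference of the 30177 probes bright enough to test was 0.02, against 2.70 for the 208 members, which the rule places above 2.

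The raised probes ranged in brightness up to the 96.0th percentile of all probes. Their mean scaled log2 signal ran from -6.32 to 4.14 in the pistillody line, with a median of -2.83, and from -9.06 to 2.13 in CS, with a median of -6.02. Among the members 37 lay above the 75th percentile of all probes in the pistillody line and 11 did so in CS. In the pistillody line 15 members stood above the 90th percentile of all probes, against 0 in CS. The median member stood at the 49.4th percentile of all probes in the pistillody line and at the 24.5th in CS. Most members were therefore probes of moderate or low signal, with a small group of bright probes.

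**Figure D1:**
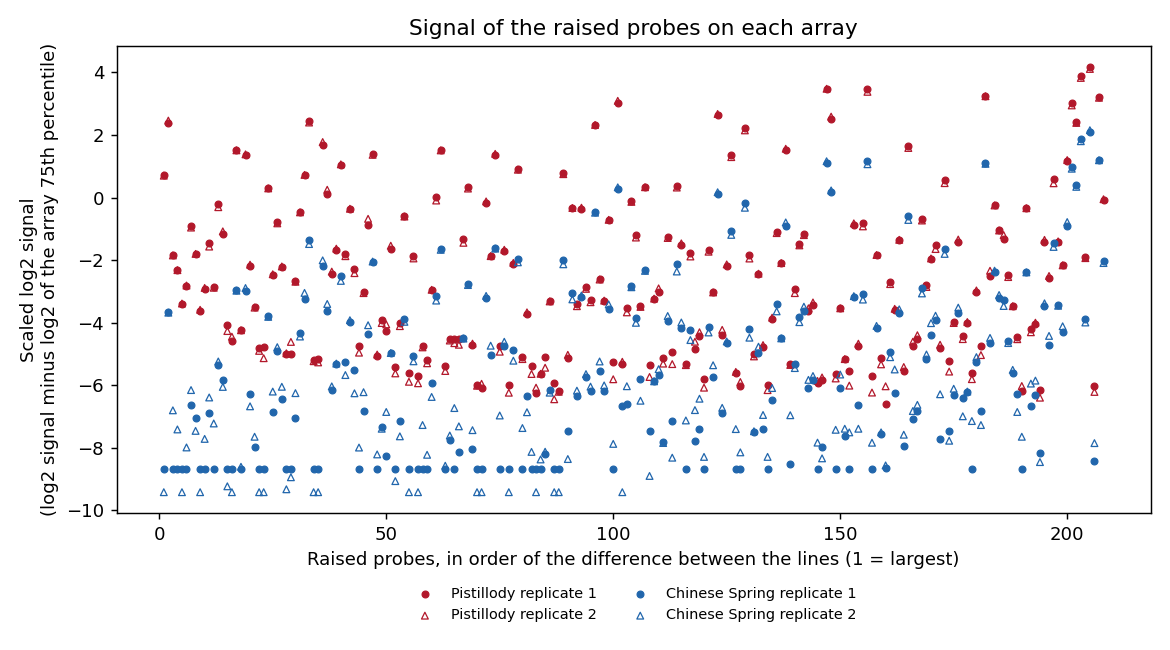
Scaled log2 signal (vertical axis) of the 208 raised probes on each array, in order of the difference between the lines from the largest on the left. Red symbols are the 2 pistillody arrays and blue symbols the 2 Chinese Spring arrays. The rows of blue symbols near -8.69 and -9.42 are surrogate values that stand for signals too close to background.

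The 2 pistillody values of a member lay close together, and the CS values of dim members did not. Replicates of a line differed by a median of 0.06 log2 units in the pistillody line and 0.21 in CS over the 208 members. Over the 117 members detected on all 4 arrays this median was 0.05 in the pistillody line and 0.13 in CS, against 0.05 and 0.09 over all 28532 such probes. Both pistillody values exceeded both CS values in all 208 members, with a smallest gap of 1.33 log2 units, where 43.0% of the tested probes were so separated. In limma's fit 208 of 208 members were called higher at an adjusted p under 0.05, where 33.5% of the tested probes were called higher. Nothing is read from either count, because the same signals chose the members.

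Members fell into 3 classes by their signal in CS. The first class, 117 probes, was detected on both CS arrays. The second, 22 probes, was detected on CS replicate 2 and not on replicate 1, the array with the higher detection limit of the 2. The third, 69 probes, was detected on neither CS array. Of the probes detected on both pistillody arrays, 28532, 627 and 129 belonged to these classes, so members made up 0.41%, 3.51% and 53.5% of them, against 0.71% (208 of 29288) over all classes. The classes and the rule both use the CS signal, so a higher share among probes dim in CS is built in, and nothing is read from it. A probe below background in CS has only a bound there, and its fitted difference depends on the surrogate values.

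The largest differences among probes detected on all 4 arrays included probes far above the detection limits in both lines and others near those limits in CS. The signal of wheat0130Contig548 was 12000 units on both pistillody arrays, against 157 and 169 units in CS. Its scaled log2 signal averaged 2.43 ± 0.05 in the pistillody line and -3.68 ± 0.01 in CS (SD, n = 2), a 68.8-fold difference. On the ranking of all probes it stood at percentiles 91.1 and 91.4 in the pistillody line and at 42.3 and 42.1 in CS, so its signal was among the bright ones of the array in the line with pistillody and below the middle in the normal line.

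Next in order stood wheat0130Contig1552, with 1970 and 1760 units in the pistillody line, against 49.1 and 57.3 units in CS, a log2 difference of 5.03. The signal of wheat0130Contig8963 was 1010 and 1030 units in the pistillody line and 34.7 and 32.6 units in CS, a log2 difference of 4.82. In CS, where the detection limits were 24.0 and 15.8 units, these probes were dim, at percentiles 23.9 to 30.1 of all probes. In the pistillody line they lay in the upper part of the array.

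Some of the 12 were bright in the pistillody line. MUGEST2003_23lib_Contig8413_514 had 6540 and 6210 units in the pistillody line, against 256 and 275 units in CS, a 22.4-fold difference. For wheat0130Contig13393 the signals were 5860 and 5680 units in the pistillody line and 250 and 292 units in CS, a 19.9-fold difference. Neither probe was near the detection limits in CS.

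MUGEST2003_23lib_Contig5909_131 had 12500 and 11500 units in the pistillody line, against 785 and 774 units in CS, a 14.4-fold difference. The signal of wheat0130Contig10100 was 7260 and 7460 units in the pistillody line and 439 and 539 units in CS, a 14.1-fold difference. The probe wheat0130Contig10477 gave 3740 and 3600 units in the pistillody line, against 211 and 262 units in CS, a 14.6-fold difference. All 3 were thus well measured in both lines.

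Of the other 4 among these 12, wheat0130Contig11610 had 2790 and 2670 units in the pistillody line and 144 and 154 units in CS. The signals of wheat0130Contig12001 were 1340 and 1230 units in the pistillody line and 66.3 and 78.7 units in CS. The last 2, rwhr8h16 and rwhoh20f22, differed 15.2-fold and 19.8-fold. In rwhoh20f22, the dimmest of the 12, CS signals of 25.8 and 21.2 units stood close to the limit of detection. Normexp, another background correction, was run on the mean spot signals with a chosen offset of 50 units. With it the log2 differences of the 12 probes ranged from 2.44, in rwhoh20f22, to 5.63, in wheat0130Contig548.

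**Figure D2:**
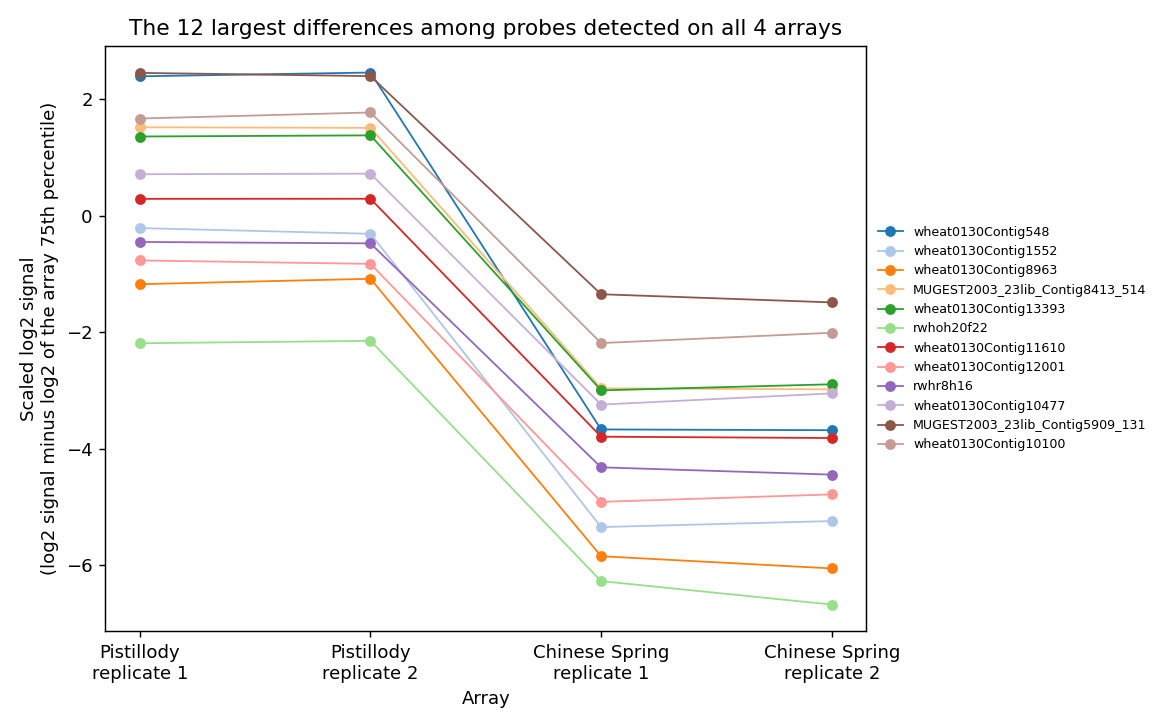
Scaled log2 signal (vertical axis) on each of the 4 arrays for the 12 raised probes with the largest difference among those detected on all arrays. Lines join the values of 1 probe and carry no order of time. Each probe is nearly level within a line of wheat and drops between the pistillody and the Chinese Spring arrays.

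The members not detected in CS had a median scaled log2 signal of -5.24 in the pistillody line, and the highest was 0.705. The extreme case was ncbi_gi_343705_781, with 3730 and 3540 units in the pistillody line. On both CS arrays this probe stood at the surrogate value for signals at background, 4.82 and 3.16 units. Set against the detection limits of the CS arrays, this signal stood at least 174-fold higher, and it ranked at percentiles 80.8 and 80.7 of all probes in the pistillody line. Its name points to a sequence record that was not matched to a gene here. No other member had a name beginning with ncbi_gi.

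The next bounds were far lower. Signals of wheat0130Contig12166 were 648 and 625 units in the pistillody line, against 15.0 and 12.3 units in CS, at least 30.5-fold higher. For wheat0130Contig15114 they were 454 and 436 units in the pistillody line, against 4.85 and 12.7 units in CS, at least 21.3-fold higher. MUGEST2003_23lib_Contig4782_1179, wheat0130Contig6599 and MUGEST2003_23lib_Contig2267_p_658 followed with bounds of at least 15.1-fold, 14.6-fold and 14.3-fold. With normexp the log2 differences of these 6 probes were between 2.13 and 5.75, the highest again in ncbi_gi_343705_781.

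Over the 69 members detected on neither CS array the bound ran from at least 1.34-fold to at least 174-fold, with a median of at least 2.83-fold. It reached 4-fold in 18 of them and 16-fold in 3. For the other 51 the difference of 2 log2 units that made them members rests on CS signals below the detection limit. Surrogate values stood for the CS signal of 46 members on replicate 1 and of 17 on replicate 2, of which 16 on both. No member had a surrogate value in the pistillody line, and 0 were saturated on any array. With the CS signals that were not detected set to at least the detection limit of their array, 149 of the 208 probes still met the rule.

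The 22 members detected on 1 CS array included further large differences. Signals of whsh_allContig268 stood at -1.83 and -1.85 on the scaled log2 axis in the pistillody line, and at -8.69 and -6.81 in CS, where the signal was detected on replicate 2 only. For MUGEST2003_23lib_Contig11950_145 the scaled log2 signals were -0.93 and -0.96 in the pistillody line and -6.65 and -6.16 in CS. The probe wheat0130Contig3922 had -1.45 and -1.57 in the pistillody line and -6.90 and -6.39 in CS. The lowest detected values were -6.38 in CS replicate 1 and -7.10 in CS replicate 2, so all 3 stood below the limit of replicate 1, whsh_allContig268 at the surrogate value. The only member with a name beginning with MUG that is not a contig, MUG014E09R990615, belongs to this class. It had 123 and 110 units in the pistillody line, against 19.5 and 35.1 units in CS. Its log2 difference of 2.05 was 0.84 with normexp.

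The 5 brightest members were bright in both lines and differed by 4.04-fold to 5.11-fold. The signal of wheat0130Contig383 was 41000 and 37700 units in the pistillody line, against 8560 and 9650 units in CS, a 4.04-fold difference. It ranked at percentiles 96.0 and 95.9 of all probes in the pistillody line and at 89.6 and 89.9 in CS. For wheat0130Contig5129 the signals were 33500 and 30900 units in the pistillody line and 7270 and 7560 units in CS, a 4.05-fold difference. These probes lay far above background on every array.

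Larger differences were seen in the next bright probes. For wheat0130Contig9563 they were 25500 and 24300 units in the pistillody line, against 4260 and 4850 units in CS, a 5.11-fold difference. For wheat0130Contig8993 they were 25000 and 22700 units in the pistillody line and 4460 and 4540 units in CS, a 4.94-fold difference. The fifth, rwh4e19, differed 4.44-fold. All 5 kept a difference of at least 2 log2 units under normexp.

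The size of the difference thinned out quickly. At least 8-fold differences were fitted for 74 members, of which 32 were detected on all 4 arrays. At 16-fold there were 29 members, 8 of them detected on all arrays, and at 32-fold 13 members, 2 of them detected on all arrays. Just inside the threshold lay rwhyd11n21 and wheat0130Contig14201, with log2 differences of 2.00 and 2.01. Just outside lay whsh_allContig856, at 1.99, and wheat0130Contig2184, at 1.98. Within 0.25 log2 units of the threshold there were 37 members above and 58 other probes below, so the threshold marks no gap between members and other probes.

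The spread between replicates was widest where signals were dim. In the pistillody line it was largest for whfl_allContig542, with 23.4 and 33.2 units, against 4.93 and 5.72 units in CS. In CS it was largest for MUGEST2003_23lib_Contig16206_519, which had 56.8 and 57.2 units in the pistillody line and 19.8 and 3.16 units in CS. Neither of these probes was detected on a CS array.

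The rule was also applied to the arrays of each replicate number alone. The rule applied to the replicate 1 arrays alone, pistillody 1 against CS 1, picked 263 probes. On the replicate 2 arrays 186 of these again differed by at least 2 log2 units, whereas 0.807% of all probes detected on pistillody replicate 2 did so. Picked on replicate 2 alone, 237 probes met the rule, of which 182 differed by at least 2 on the replicate 1 arrays, where 0.844% of all probes detected on pistillody replicate 1 did so. These shares cover only detected probes, whereas the picked probes did not have to be detected on the pistillody array of the other replicate. With 1 array in each line these are descriptions without a test. Members made up 201 of the 263 and 189 of the 237 picked probes, and the same 4 arrays chose those members. The counts are therefore no independent support for the set. The replicates may be technical, so the counts may describe the repeatability of the arrays alone.

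The share that passed again differed with detection on the CS array used for the choice. Of the 121 probes picked on replicate 1 and detected on CS replicate 1, 106 passed 2 log2 units on replicate 2, with median differences of 2.50 on both. Of the 142 not detected on CS replicate 1, 80 did so, and their median was 2.66 on the replicate 1 arrays that chose them and 2.15 on the replicate 2 arrays. Picked on replicate 2, 124 of the 135 probes detected on CS replicate 2 passed on replicate 1, and 58 of the 102 not detected there.

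**Figure D3:**
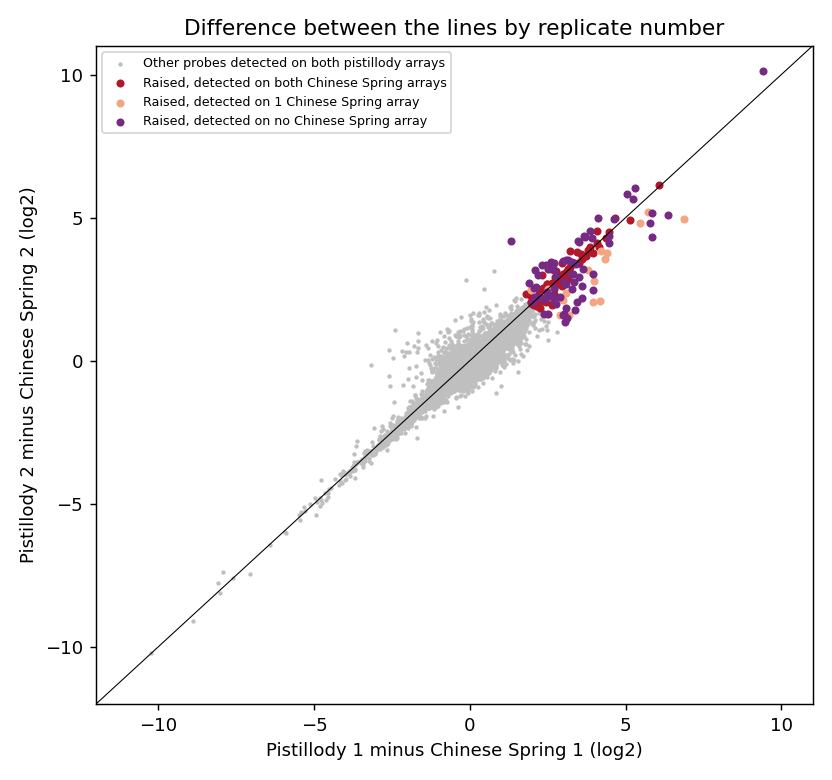
Difference between the lines in the replicate 1 arrays (horizontal axis) and in the replicate 2 arrays (vertical axis), in log2 units, for the 29288 probes detected on both pistillody arrays. Coloured points are the 208 raised probes by their detection in Chinese Spring, and the line marks equal differences. Raised probes detected on both Chinese Spring arrays lie close to the line and the others scatter around it.

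A second probe with the same name apart from a leading r exists for 10 of the members, in 7 pairs. The sources used here do not say how both probes of a pair relate to a transcript, or what the r stands for. The second probe of 4 pairs was not chosen by the rule, but it was measured on the same arrays.

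In 3 pairs both probes were members. The signal of rwhr8h16 was 1670 and 1570 units in the pistillody line, against 100 and 99.6 units in CS, while whr8h16 had 107 and 110 units in the pistillody line and 11.8 and 25.1 units in CS. The probes rwhyf24p13 and whyf24p13 had scaled log2 means of -3.70 and -3.87 in the pistillody line and of -6.60 and -6.28 in CS. The pair rwhyf27k02 and whyf27k02 had means of -0.33 and -5.72 in the pistillody line and of -2.39 and -7.92 in CS, and their log2 differences were 2.05 and 2.21. For whyf27k02, not detected in CS, the bound was at least 2.04-fold. With normexp the log2 differences were 3.23 and 0.94 in rwhr8h16 and whr8h16, 1.31 and 1.19 in rwhyf24p13 and whyf24p13, and 1.89 and 0.41 in rwhyf27k02 and whyf27k02.

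In the other 4 pairs the second probe was no member. Of these second probes 2 were bright enough to test and 0 of them were called higher, where 33.5% of all tested probes were. Second probes that met the rule were counted in the pairs above, so nothing is read from this 0. The signal of whr6k02 was 141 and 140 units in the pistillody line, against 151 and 160 units in CS. Its log2 difference was -0.24 (SE 0.08, adjusted p = 0.0234 by limma), and 30.0% of all tested probes were likewise called lower. The replicates may be technical, so an SE here may measure the repeatability of the arrays alone. The partner of whr6k02, rwhr6k02, had 64.6 and 54.9 units in the pistillody line and 8.77 and 9.40 units in CS. The probe whh21a04 had 29.1 and 32.5 units in the pistillody line and 27.9 and 30.8 units in CS, which differed by -0.03 log2 units (SE 0.22, adjusted p = 0.914 by limma), against 65.1 and 66.7 units in the pistillody line and 11.3 and 6.59 units in CS for rwhh21a04. In both, the member was not detected in CS, with bounds of at least 2.86-fold for rwhr6k02 and at least 3.16-fold for rwhh21a04. With normexp their log2 differences were 0.64 and 0.65, against -0.20 for each of the second probes.

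The second probes of rwhr9d08 and rwh20g21 were too dim to test. For whr9d08 the scaled log2 signal was -6.31 and -6.64 in the pistillody line and -6.60 and -5.95 in CS. For wh20g21 it was -6.62 and -7.11 in the pistillody line and -7.97 and -7.41 in CS. In this last pair the member, rwh20g21, was detected on all 4 arrays and stood at -2.60 and -2.62 in the pistillody line, against -5.55 and -5.24 in CS.

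**Figure D4:**
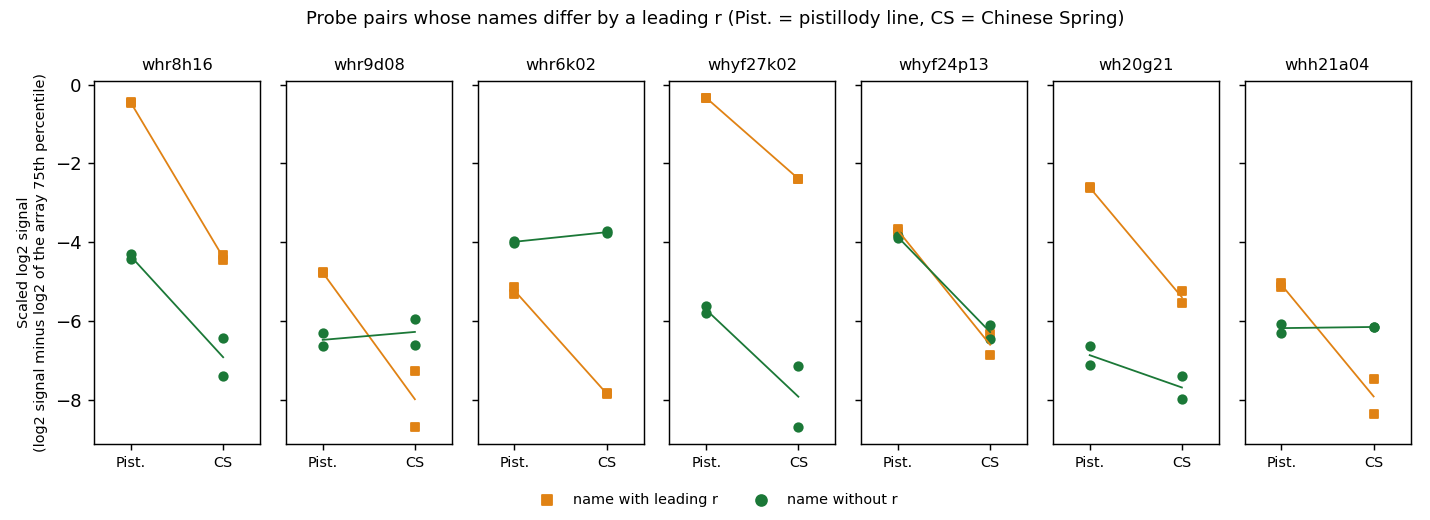
Scaled log2 signal (vertical axis) in the pistillody line (left) and Chinese Spring (right) for 7 pairs of probes whose names differ by a leading r, with 1 point per array and lines between the means. In whr8h16, whyf27k02 and whyf24p13 both probes are higher in the pistillody line. In the other 4 only the probe with the leading r is a raised probe.

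Names with a leading r were more frequent in the set than the same kind of name without it. Names of contigs were left out here. Of 3667 names beginning with rwh and detected on both pistillody arrays, 31 were members (0.845%), against 12 of 5118 names beginning with wh (0.234%). Among those detected on all 4 arrays the shares were 0.557% (20 of 3593) and 0.124% (6 of 4857). The probes with the r were also brighter, with a median scaled log2 signal of -1.54, against -3.84 without it, in the pistillody line. In the opposite direction, a fall of at least 2 log2 units was also more frequent with the r, in 2.23% against 0.849% of the probes detected on both CS arrays. The part of brightness in these shares was not tested.

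By the beginning of the name, with a leading r ignored, the members fell into 24 of 41 groups of at least 50 probes. Most carried the names of the largest groups, wheat0130Contig with 105 members (0.892% of 11771 probes detected on both pistillody arrays) and MUGEST2003_23lib_Contig with 43 (0.813% of 5290). These shares are near the 0.71% of all probes. Higher shares were found in whr names, with 11 of 460 (2.39%), in whkv names, with 3 of 124 (2.42%), in whsh names, with 2 of 130 (1.54%), and in whsh_allContig names, with 11 of 840 (1.31%). Of these members 5, 2, 0 and 3, in that order, were detected on all 4 arrays. The whr, whsh and whsh_allContig shares thus rest mostly on probes not detected on both CS arrays. MUG names had 1 of 1249 (0.0801%), and 17 groups with 2945 detected probes had 0. The sources used here do not say what these beginnings stand for, the probes were not matched on brightness, and the shares are descriptions without a test.

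In the whr group 9 of the 11 members had a leading r, out of 198 such probes, and 2 had none, out of 262. The group was dim, with a median scaled log2 signal of its members of -4.36 in the pistillody line, and 5 were detected on all 4 arrays. Besides rwhr8h16 these were rwhr16o24, rwhr10l12, rwhr12e15 and rwhr6m06. Their log2 differences were 2.88, 2.38, 2.37 and 2.27.

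The whsh_allContig group held both bright probes and probes not detected in CS. The probe whsh_allContig1110 had scaled log2 signals of 2.65 and 2.67 in the pistillody line, against 0.12 and 0.17 in CS. For whsh_allContig1196 they were 2.50 and 2.59 in the pistillody line and 0.18 and 0.23 in CS, and for whsh_allContig913 they were -1.82 and -1.88 in the pistillody line and -5.25 and -5.68 in CS. These 3 were the members of the group detected on all arrays. Of the rest, whsh_allContig288, whsh_allContig549, whsh_allContig1036 and whsh_allContig1173 stood at surrogate values on both CS arrays.

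**Figure D5:**
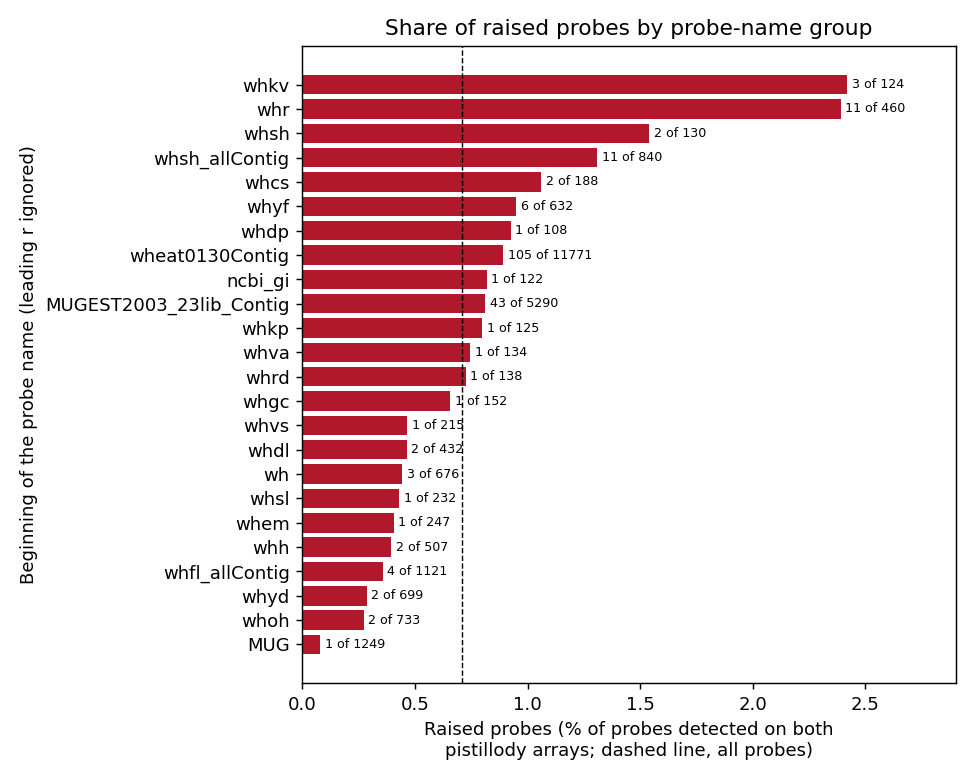
Share of raised probes (horizontal axis, % of the probes detected on both pistillody arrays) for each of the 24 groups of probe names with at least 1 raised probe, with the counts beside the bars. The dashed line is the share over all probes, 0.71%. The whkv and whr names have the longest bars, and the whkv bar rests on 3 probes.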

How the data were processed

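Per the labels' protocols, Cy3-labelled total RNA of young spikes was measured on 4 Agilent arrays of 1 colour. The intensity values deposited by the authors were written by Feature Extraction 9.5, as the submitters' processing notes name it, which per the file headers detrended each array and replaced signals near background by surrogates. A deposited value table held the same intensities (0 of 156972 differed). The other deposited columns used, per the file headers, are the mean spot and median background signals, flags for detection, saturation and outliers, and the pixel spread.

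The log2 of each array's 75th percentile over 37826 probes was subtracted. The members and lists were chosen with earlier results of these data known. Probes detected on both arrays of at least 1 line were tested with limma 3.58.1 in R 4.3.3 (intensity trend, Benjamini-Hochberg over 30177 probes, two-sided). The fit was also run on simulated arrays with independent noise. That run cannot show how the calls fare if the replicates are technical. A bound compares the pistillody mean with, per CS array, the lowest detected value, or the probe's own where that is higher. Named members are the 12 largest differences among those detected on all arrays, the 6 largest bounds, the 5 brightest, those with symbol or accession-like names, those with partner probes, and those nearest the threshold or most variable. Others were chosen after their values were seen. All arrays shared 1 slide and scan. No probe sequence was used.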

Additional observations from a re-analysis of the deposited data

How the results depend on the processing

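The count of 208 raised probes changed by over 1.5 times with the background correction, the detection asked for and the threshold. Normexp was run on the mean spot signals, with a chosen offset that adds 50 units to every signal. With it 76 of the 208 probes kept 2 log2 units, and all 208 kept a difference above 0. The parts of the offset and of the changed input were not tested apart. The 76 had median signals of 1820 units in the pistillody line and 185 units in CS, against 105 and 14.5 units for the other 132. Demanding detection on all 4 arrays left 117 probes by construction, and a threshold of 3 log2 units left 74. Every pistillody value lay at least 2 log2 units above every CS value in 169. Other scalings gave 202 to 224. Leaving out each array in turn gave 195 (without CS replicate 1) to 251 (without pistillody replicate 1) raised probes, 7945 to 10798 probes called higher, 7325 to 9627 called lower and 0 second probes called higher. For these fits the lone array's spread was taken to equal the other line's. Labels tie replicate numbers to no shared plot or day, and same-numbered arrays deviated with a correlation of 0.112 over 28532 probes. With the replicate block limma called 11308 probes higher and 10274 lower, against 10095 and 9042 without it. With names matched also when they differ in a trailing number, a choice made after seeing the data, 13 pairs were found and 0 second probes were called higher. Second probes that are members were left out of both counts of 0, so nothing is read from them. Of the 39 named probes, 33 moved by more than the spread between replicates under normexp, by up to -4.02 log2 units, 6 under quantile normalization and 5 with the percentile taken over detected probes, and 0 called differences reversed. Dim filter, outlier marks and replicate block cannot move a fitted difference here. The number of arrays and signals near background limit the precision.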
